A study of Mus musculus with 17 samples.

Results

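Cathepsins are proteases of endosomes and lysosomes, and legumain (Lgmn) is the asparaginyl endopeptidase of the same compartments. The mRNAs of 9 cathepsins (Ctsa, Ctsb, Ctsc, Ctsd, Ctsh, Ctsk, Ctsl, Ctss and Ctsz) and of Lgmn were taken by gene symbol from a count table of 22859 genes. All 10 genes were in the table and all 10 passed the filter on low counts, as did 15272 genes in total. The libraries were made from macrophages of the joint lining (synovium) of mice labelled Fcgr2b-KO, separated by sorting. This knockout removes the inhibitory Fc gamma receptor IIb and was carried by controls and treated mice alike, so no wild-type group was compared. LYVE1+CX3CR1+ macrophages, MHCII+CD11c- macrophages (labelled IAIE, after MHC class II) and MHCII+CD11c+ macrophages came from control mice, labelled healthy (n = 3 libraries per subset). The same subsets came from mice collected 8 h after immune complex (IC), antibody bound to its antigen, was given into the circulation (n = 3, 3 and 2 libraries, with 2 for MHCII+CD11c+). Libraries are referred to by the replicate number of their label, and the labels do not say whether libraries of the same number came from the same mouse.

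In macrophages, cathepsins break down proteins that were taken up by phagocytosis or endocytosis, including antibody bound to its antigen, and trim antigens and the invariant chain for MHC class II. Most are cysteine proteases made as inactive proenzymes and switched on by low pH. Ctsb, Ctsl, Ctss and Ctsk cut within proteins, Ctsh, Ctsc and Ctsz remove residues from the ends, Ctsd is an aspartic protease and Ctsa is a serine carboxypeptidase. Lgmn cuts after asparagine and processes several cathepsins to their mature forms.

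Depth was between 2301913 and 7248939 counts per library, and the 10 genes took between 0.420% and 1.24% of them. Fcgr2b itself was at 69.3 to 248 CPM over all 17 libraries, where CPM is the count relative to the library total, scaled by the trimmed mean of M values (TMM). No wild-type library was compared and the deleted part of the gene is not given in the sources used here, so this level is no check of the deletion. H2-Ab1 and Itgax followed the labels, while Lyve1 was high in MHCII+CD11c- libraries too, at 695 to 2458 CPM against 1727 to 4116 CPM in LYVE1+CX3CR1+ libraries. H2-Ab1 was at 9.76 to 36.8 CPM in LYVE1+CX3CR1+ libraries and at 2654 to 9804 CPM in the others, and Itgax, which encodes CD11c, was at 275 to 443 CPM in MHCII+CD11c+ libraries and at 0 to 16.0 CPM elsewhere. The 4 sorting markers (Lyve1, Cx3cr1, H2-Ab1 and Itgax) were tested with edgeR at an adjusted p under 0.05. In LYVE1+CX3CR1+ against MHCII+CD11c- macrophages, 0 were higher and 2 were lower, in controls and again after IC. Against MHCII+CD11c+ macrophages, 2 were higher and 2 lower in controls, and 1 and 2 after IC. Macrophage markers (Adgre1, Cd68, Csf1r, Fcgr1, Mertk, C1qa, C1qb and C1qc) were present in every group, but MHCII+CD11c+ libraries had the lowest sums. These were 1792, 3639 and 1842 CPM in controls and 5269 and 3650 CPM after IC, against 7909 to 11851 CPM in the other 4 groups. Control library 2 of the MHCII+CD11c+ subset stood apart from libraries 1 and 3, with Lyve1 at 382 CPM against 29.8 and 25.3 CPM, so the main results on its controls are given with and without it. Since these are bulk libraries, fewer cells of a type and less RNA per cell cannot be told apart.

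**Figure D1:**
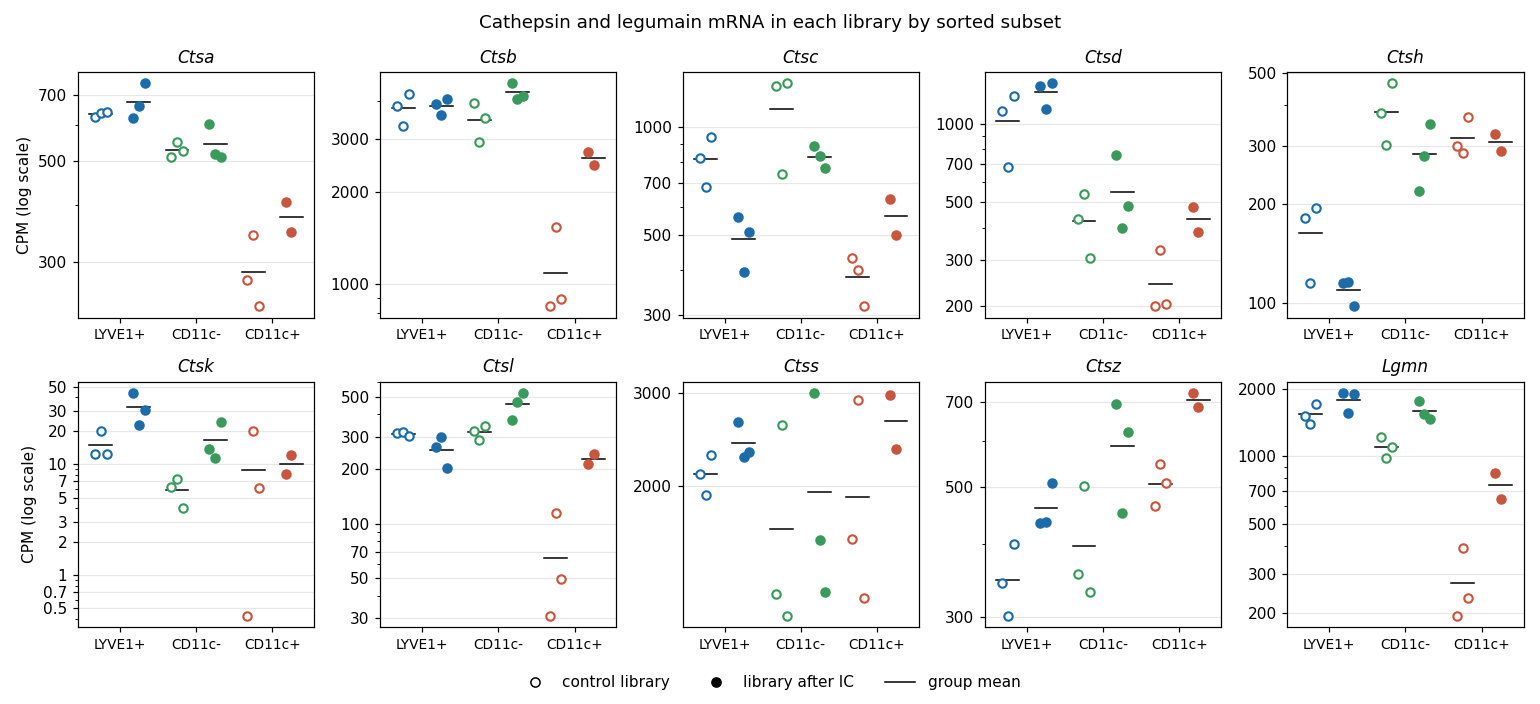
Level (CPM, log axis, a separate range for each gene) of the 10 mRNAs in each of the 17 libraries, by subset (LYVE1+ is LYVE1+CX3CR1+, CD11c- and CD11c+ are the MHCII+ subsets); open points are controls, filled points are libraries after IC and lines are group means. Lgmn, Ctsb and Ctsl of control MHCII+CD11c+ libraries lie below every library of the other 5 groups, while Ctsh is lowest in LYVE1+CX3CR1+ libraries.

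Per unit of transcript length (CPM per kilobase, kb), Ctss, which cuts the invariant chain for MHC class II, had the highest level of the 10 mRNAs in all 6 groups. Its mean level was 1558 ± 133 CPM per kb (SD, n = 3) in control LYVE1+CX3CR1+ macrophages, 1230 ± 602 (n = 3) in control MHCII+CD11c- and 1411 ± 650 (n = 3) in control MHCII+CD11c+ macrophages. Ctsb, the lysosomal endopeptidase that also acts as a carboxypeptidase, came next in control LYVE1+CX3CR1+ macrophages with 798 ± 98.2 CPM per kb (n = 3). Lgmn was close to it with 773 ± 81.0 CPM per kb (n = 3), and their order turned when all annotated exon bases were used as the length (662 for Lgmn and 625 for Ctsb). In control MHCII+CD11c+ macrophages the order was another one, with Ctsz (352 ± 29.2 CPM per kb, n = 3) above Ctsb (229 ± 81.6) and Ctsh (196 ± 27.3) above Lgmn (137 ± 52.1). By the exon-base length Ctsz stayed above Ctsb (352 and 179.7) but Ctsh fell below Lgmn (70.6 and 117), so the place of Ctsh depends on the transcript chosen. Without library 2 the levels per transcript length were 337 for Ctsz, 182 for Ctsb, 207 for Ctsh and 107 for Lgmn. Ctsk, the collagen-degrading protease of osteoclasts, was the lowest of the 10 in every group, with means between 3.88 and 21.6 CPM per kb.

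The summed level of the 10 mRNAs was 4550 ± 544 CPM per kb (n = 3) in control LYVE1+CX3CR1+, 3884 ± 425 (n = 3) in control MHCII+CD11c- and 2675 ± 863 (n = 3) in control MHCII+CD11c+ macrophages. Within this sum, Ctss took 34.3% ± 1.27, 30.8% ± 11.5 and 51.3% ± 7.41 in the same order. Lgmn took 17.01% ± 0.509, 14.4% ± 2.66 and 5.08% ± 0.706, and Ctsb took 17.5% ± 0.0814, 19.0% ± 4.25 and 8.53% ± 0.642. After IC, MHCII+CD11c+ macrophages had 8.92% ± 0.585 Lgmn and 13.1% ± 0.787 Ctsb (n = 2). The mixture of lysosomal protease mRNAs in CD11c+ cells thus held less Lgmn and Ctsb, and more Ctss and Ctsz, in its mean shares than that of the other subsets, with 13.8% and 11.8% Ctsz in controls and after IC against 5.29% to 8.89% in the other 4 groups. Without library 2, the control MHCII+CD11c+ sum was 2180 CPM per kb, with 47.7% Ctss, 15.5% Ctsz, 8.38% Ctsb and 4.95% Lgmn. Shares of one sum depend on each other, so they are given with no test.

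**Figure D2:**
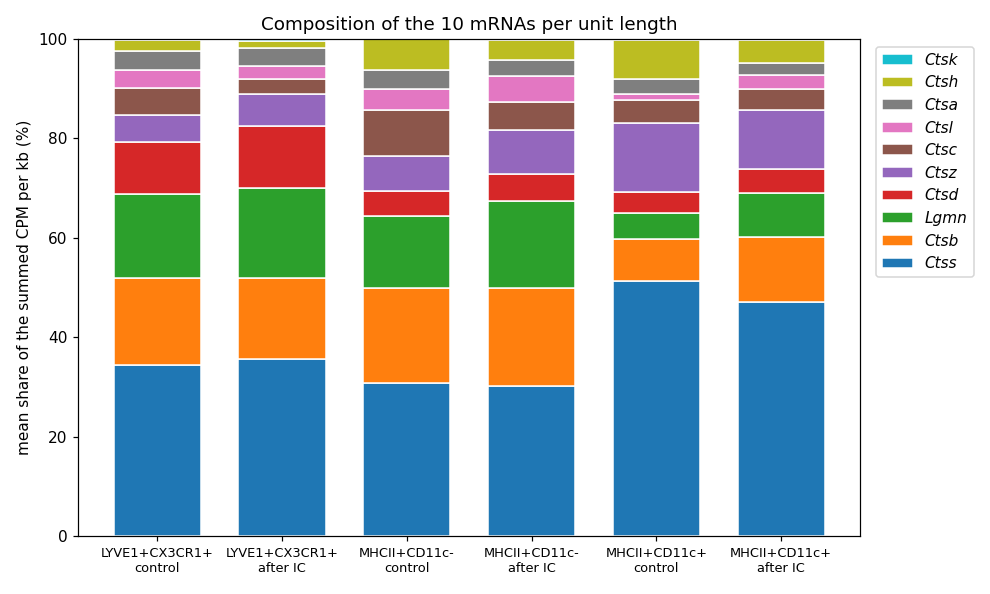
Mean share (%) of each mRNA in the summed length-scaled level of the 10 genes, 1 bar for each of the 6 groups (n = 3 libraries, 2 for MHCII+CD11c+ after IC). Ctss takes 30.1% to 35.7% in the 4 groups without CD11c and 51.3% and 47.0% in the MHCII+CD11c+ groups, where the Ctsb and Lgmn layers are thinnest.

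In control mice, LYVE1+CX3CR1+ and MHCII+CD11c+ macrophages differed most. Of the 10 mRNAs, 6 were higher in LYVE1+CX3CR1+ macrophages (Lgmn, Ctsl, Ctsd, Ctsb, Ctsa and Ctsc) and 2 were lower (Ctsh and Ctsz), where 7.83% and 7.4% of all tested genes were called higher and lower. A gene is called changed here at an adjusted p under 0.05 in edgeR's quasi-likelihood test over all 15272 genes. The median log2 fold change of the 10 mRNAs was 1.12, and that of all tested genes was 0.052. Lgmn was at 1514, 1390 and 1709 CPM in control LYVE1+CX3CR1+ libraries 1, 2 and 3 and at 194, 390 and 233 CPM in control MHCII+CD11c+ libraries. Every LYVE1+CX3CR1+ library was above every MHCII+CD11c+ library, and the fitted level was 5.65-fold higher (log2 2.497 ± 0.21 SE, adjusted p = 1.03e-08). Ctsl, an endopeptidase that also processes the invariant chain, was at 315, 319 and 305 CPM against 30.8, 114 and 49.2 CPM. The groups did not overlap, with a 4.82-fold difference (log2 2.27 ± 0.33, adjusted p = 8.67e-05). Ctsb was at 3841, 3294 and 4220 CPM against 841, 1533 and 887 CPM, again with no overlap (3.48-fold, log2 1.80 ± 0.19, adjusted p = 2.91e-07). All 8 called mRNAs had groups that did not overlap, 6 higher and 2 lower, where 20.8% and 16.9% of all tested genes were. Without MHCII+CD11c+ control library 2 the log2 differences were 2.85 (Lgmn), 2.98 (Ctsl) and 2.13 (Ctsb). Of the MHCII+CD11c+ controls, library 2 was the highest in Lgmn, Ctsl and Ctsb.

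Ctsd, the aspartic protease of lysosomes, was at 1123, 686 and 1279 CPM in control LYVE1+CX3CR1+ libraries and at 199, 327 and 203 CPM in control MHCII+CD11c+ libraries (4.23-fold, log2 2.08 ± 0.28, adjusted p = 3.82e-05). Ctsa, which protects the lysosomal enzymes Neu1 and Glb1 in a complex, was at 625, 640 and 641 CPM against 274, 344 and 240 CPM (2.22-fold, log2 1.15 ± 0.16, adjusted p = 1.18e-05). Ctsc, the dipeptidyl peptidase that activates granule serine proteases, was at 824, 683 and 938 CPM against 431, 401 and 316 CPM (2.13-fold, log2 1.09 ± 0.20, adjusted p = 0.000436). None of these 3 genes overlapped between the groups, and without MHCII+CD11c+ control library 2 the log2 differences were 2.36 (Ctsd), 1.30 (Ctsa) and 1.12 (Ctsc). Relative to the summed macrophage markers, given further on, the direction turned for Ctsa, Ctsc and Ctsb, and Ctsd and Ctsl overlapped between the groups. The opposite direction was held by Ctsh, an aminopeptidase, at 181, 115 and 194 CPM against 299.9, 285 and 368 CPM (log2 -0.96 ± 0.21, adjusted p = 0.00232). Ctsz, a carboxypeptidase, was at 342, 301 and 400 CPM against 464, 548 and 509 CPM (log2 -0.54 ± 0.18, adjusted p = 0.0453). The call of Ctsz was lost without any 1 of 5 libraries, with an adjusted p between 0.0574 and 0.186, and kept without LYVE1+CX3CR1+ library 3, and with 2 surrogate variables Ctsh and Ctsz had adjusted p-values of 0.0634 and 0.0511. Ctss and Ctsk were not called, with log2 differences of 0.14 ± 0.38 and 0.72 ± 0.67, but without MHCII+CD11c+ control library 2 Ctsk was called higher in LYVE1+CX3CR1+ macrophages (adjusted p = 0.0287), as it was by voom with quality weights (0.0318).

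The comparison of the MHCII+ subsets with each other asks what goes with CD11c. In control mice, 5 of the 10 mRNAs were lower in MHCII+CD11c+ macrophages than in the CD11c- subset and 0 were higher, where 4.99% and 3.67% of all tested genes were called lower and higher. The 5 were Ctsl (log2 -2.30 ± 0.33, adjusted p = 0.000176), Lgmn (-2.02 ± 0.20, 7.91e-07), Ctsb (-1.67 ± 0.19, 2.94e-06), Ctsc (-1.56 ± 0.21, 1.83e-05) and Ctsa (-0.89 ± 0.16, 0.000498). Control MHCII+CD11c- libraries had 1220, 988 and 1101 CPM of Lgmn, 325, 288 and 346 CPM of Ctsl and 3930, 2922 and 3499 CPM of Ctsb, all above every control MHCII+CD11c+ library, and 14.9% of all tested genes were lower with no overlap. All 5 were called also without MHCII+CD11c+ control library 2, with log2 differences of -3.01 (Ctsl), -2.37 (Lgmn), -1.997 (Ctsb), -1.59 (Ctsc) and -1.04 (Ctsa). Relative to the summed macrophage markers, given further on, the direction turned for Ctsa and Ctsb. On that scale Lgmn and Ctsc overlapped between these groups, and Ctsl stayed lower with no overlap. Ctsc was at 1306, 741 and 1330 CPM in MHCII+CD11c- controls, its highest mean of the 6 groups. Ctsd was not called (log2 -0.80 ± 0.27, adjusted p = 0.0807), and was called without MHCII+CD11c+ control library 2 (0.0196) or MHCII+CD11c- control library 3 (0.0476), and by DESeq2 (0.0321). Ctsh, Ctss, Ctsz and Ctsk were not called, and Ctsh had similar levels, with 379, 302 and 467 CPM in MHCII+CD11c- and 299.9, 285 and 368 CPM in MHCII+CD11c+ controls (log2 -0.27 ± 0.21).

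Between control LYVE1+CX3CR1+ and MHCII+CD11c- macrophages, 1 of the 10 mRNAs was higher and 1 was lower, where 0.34% and 1.22% of all tested genes were called higher and lower. Ctsd was higher in LYVE1+CX3CR1+ macrophages, with 1123, 686 and 1279 CPM against 433, 536 and 306 CPM (2.42-fold, log2 1.28 ± 0.28, adjusted p = 0.0208). Ctsh was lower, with 181, 115 and 194 CPM against 379, 302 and 467 CPM (log2 -1.23 ± 0.21, adjusted p = 0.00246). Neither gene overlapped between the groups, where 11.3% and 10.3% of all tested genes were higher and lower with no overlap. The call of Ctsd was lost without LYVE1+CX3CR1+ library 1 (adjusted p = 0.101) or 3 (0.12), without MHCII+CD11c- library 1 (0.0931) or 3 (0.118), and with no filter on low counts (0.0797), and Ctsc was called lower (0.0423) without MHCII+CD11c- library 2. Lgmn was higher by 0.48 ± 0.20 on the log2 scale with an adjusted p of 0.338 (0.0258 by voom with quality weights), and the other 7 genes had adjusted p-values between 0.390 and 0.997.

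**Figure D3:**
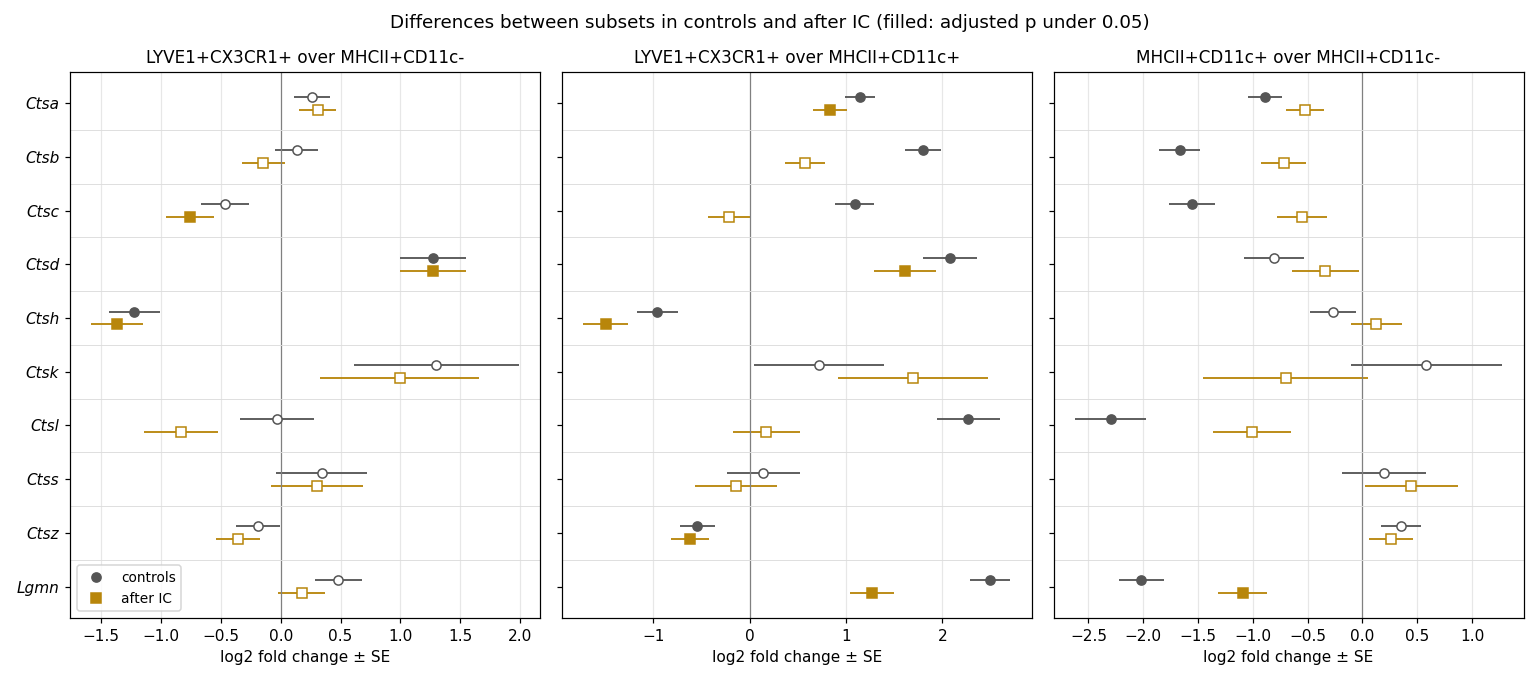
Fitted log2 fold change (± SE) of each mRNA between pairs of subsets, in controls (grey circles) and after IC (gold squares); filled symbols have an adjusted p under 0.05. Lgmn, Ctsb, Ctsl and Ctsc lie nearer to 0 after IC than in controls in both panels with MHCII+CD11c+ macrophages, while Ctsd and Ctsh differ between LYVE1+CX3CR1+ and MHCII+CD11c- macrophages in both conditions.

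The response to IC asks whether the protease mRNAs change within a subset 8 h after the challenge. In MHCII+CD11c+ macrophages, Lgmn, Ctsb and Ctsl rose, so 3 of the 10 mRNAs were called higher and 0 lower, where 0.216% and 0% of all tested genes were called higher and lower. The median log2 fold change of the 10 mRNAs was 0.52, with 9 values above 0, and that of all tested genes was 0.015. Lgmn went from 194, 390 and 233 CPM in controls to 844 and 642 CPM after IC, 2.73-fold higher (log2 1.45 ± 0.22, adjusted p = 0.00578). Ctsb went from 841, 1533 and 887 CPM to 2712 and 2464 CPM, 2.38-fold higher (log2 1.25 ± 0.20, adjusted p = 0.00965). Ctsl went from 30.8, 114 and 49.2 CPM to 214 and 241 CPM, 3.50-fold higher (log2 1.81 ± 0.35, adjusted p = 0.0391). In each of these 3 genes both libraries after IC were above all 3 controls. The same held for Ctsa, Ctsc, Ctsd and Ctsz, so 7 of the 10 mRNAs were higher with no overlap, where 14.1% of all tested genes were. These 4 had unadjusted p under 0.05 but adjusted p-values between 0.734 and 0.843, with log2 changes of 0.40 ± 0.17 (Ctsa), 0.56 ± 0.22 (Ctsc), 0.83 ± 0.30 (Ctsd) and 0.48 ± 0.20 (Ctsz). With the 3 called mRNAs, 7 of the 10 had an unadjusted p under 0.05, as did 795 of all 15272 tested genes.

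The 3 calls rest on few libraries. Without MHCII+CD11c+ control library 2, Lgmn, Ctsb and Ctsl were called, with log2 changes of 1.80, 1.58 and 2.52 and adjusted p-values of 9.0e-06, 9.13e-06 and 2.7e-06. Without control library 1, Ctsb had an adjusted p of 0.0708 and Ctsl of 0.0657. Without control library 3, Lgmn had 0.0613, Ctsb 0.0706 and Ctsl 0.207. Without IC library 1, Lgmn and Ctsb had 0.204 and Ctsl 0.363, and without IC library 2 Ctsl had 0.264. With only the 5 libraries of this comparison in the fit, Lgmn had 0.148, Ctsb 0.173 and Ctsl 0.600. Ctsl also lost its call with no filter on low counts (0.0811) and with surrogate variables (0.0746).

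In LYVE1+CX3CR1+ macrophages, 0 of the 10 mRNAs were called changed after IC by edgeR, where 0.963% of all tested genes were. DESeq2 and voom with quality weights also called 0. An unadjusted p under 0.05 was found in 3 of the 10 (Ctsc, Ctsh and Ctsz) and in 2159 of all 15272 tested genes. Ctsc was at 824, 683 and 938 CPM in controls and at 562, 396 and 510 CPM after IC, with no overlap (log2 -0.74 ± 0.20, adjusted p = 0.0765). Ctsh was at 181, 115 and 194 CPM against 115, 116 and 97.5 CPM after IC (log2 -0.58 ± 0.21, adjusted p = 0.206), and control library 2 lay within the range after IC. Ctsz was at 342, 301 and 400 CPM in controls and 434, 437 and 509 CPM after IC (log2 0.40 ± 0.18, adjusted p = 0.312). Ctsb and Ctsa, which were high in this subset, had 95% intervals of the log2 change from -0.35 to 0.40 and from -0.23 to 0.41. Fewer genes were detected in LYVE1+CX3CR1+ libraries after IC, with 11547 to 13849 genes expected at a common depth of 2301913 counts against 16366 to 17407 in controls, and its part in these values was not tested.

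In MHCII+CD11c- macrophages, edgeR called 0 of the 10 mRNAs changed after IC, where 0.701% of all tested genes were called. DESeq2 and voom with quality weights called 0. An unadjusted p under 0.05 was found in 5 of the 10 and in 1526 of all 15272 tested genes. Lgmn was at 1220, 988 and 1101 CPM in controls and at 1757, 1542 and 1462 CPM after IC, with no overlap (log2 0.52 ± 0.20, adjusted p = 0.306). Ctsz was at 355, 503 and 331 CPM and at 695, 452 and 621 CPM (log2 0.57 ± 0.18, adjusted p = 0.202), and was called only without MHCII+CD11c- control library 2 (0.0416). Ctsk, with 12 to 88 counts per library, was at 6.19, 7.42 and 4.01 CPM in controls and at 13.7, 11.3 and 24.2 CPM after IC (log2 1.46 ± 0.69, adjusted p = 0.487). Ctsc and Ctsh had log2 changes of -0.44 ± 0.20 and -0.43 ± 0.21, and both overlapped between the groups.

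**Figure D4:**
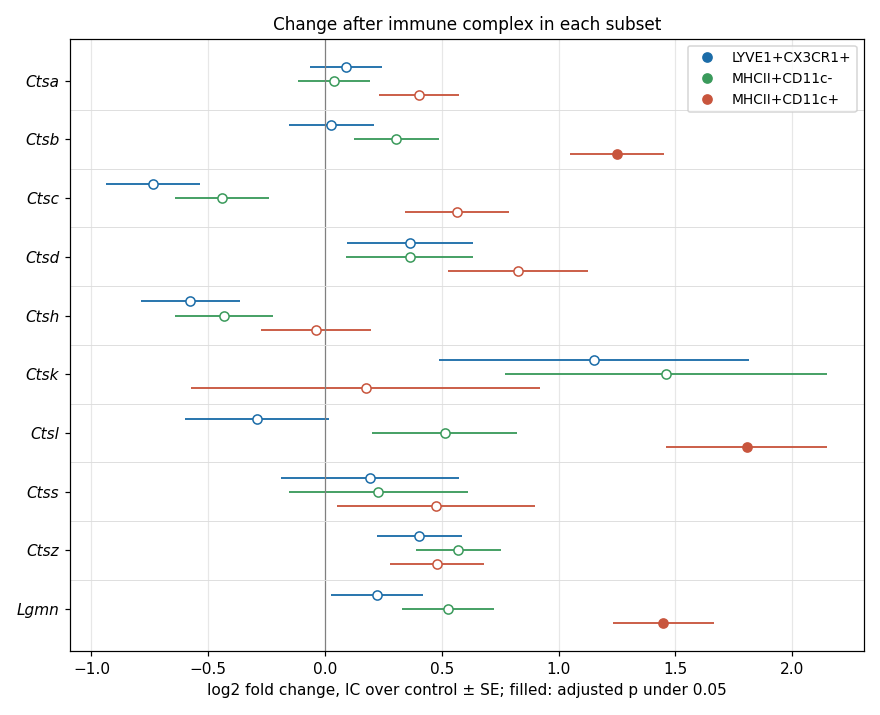
Fitted log2 fold change (± SE) of each mRNA after IC over control in the 3 subsets; filled points have an adjusted p under 0.05. Lgmn (1.45), Ctsb (1.25) and Ctsl (1.81) of MHCII+CD11c+ macrophages are the filled points, and Ctsc lies below 0 in both other subsets (-0.74 and -0.44) and above 0 in MHCII+CD11c+ macrophages (0.56).

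Whether the responses differed between subsets was tested directly, and edgeR called 0 of the 10 mRNAs in any of the 3 differences of responses. Between LYVE1+CX3CR1+ and MHCII+CD11c+ macrophages, 0.0327% of all tested genes were called. An unadjusted p under 0.05 was found in 4 of the 10 mRNAs and in 1225 of all 15272 tested genes. The log2 response in LYVE1+CX3CR1+ macrophages minus that in MHCII+CD11c+ macrophages was -1.22 ± 0.27 for Ctsb (adjusted p = 0.123), -1.30 ± 0.30 for Ctsc (0.135), -2.10 ± 0.46 for Ctsl (0.136) and -1.23 ± 0.29 for Lgmn (0.146). DESeq2 called 1 of the 10 (Ctsl, 0.0192), and voom with quality weights called 3 (Ctsb, Ctsl and Lgmn, 0.0031, 0.000612 and 0.0130). Without MHCII+CD11c+ control library 2, edgeR called the same 3 (0.000588, 1.36e-05 and 0.00126), and with no filter on low counts it called Ctsb (0.0265) and Ctsc (0.0381). Between MHCII+CD11c+ and MHCII+CD11c- macrophages, 0% of all tested genes and none of the 10 mRNAs were called, and DESeq2 and voom called 0. In this difference 4 of the 10 mRNAs and 496 of all tested genes had an unadjusted p under 0.05. Without MHCII+CD11c+ control library 2, Ctsb (0.0115), Ctsl (0.00575) and Lgmn (0.0240) were called here too, each with the larger rise in MHCII+CD11c+ macrophages. Between LYVE1+CX3CR1+ and MHCII+CD11c- macrophages, 0.0262% of all tested genes and 0 of the 10 mRNAs were called, and DESeq2 and voom called 0. In this difference 0 of the 10 mRNAs and 1152 of all tested genes had an unadjusted p under 0.05. Scaling with the size factors of DESeq2 in place of TMM moved the median of all genes from -0.205 to -0.0386 in the first of these differences and from -0.161 to -0.0300 in the last.

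After IC, LYVE1+CX3CR1+ and MHCII+CD11c+ macrophages still differed, with Lgmn, Ctsd and Ctsa higher in LYVE1+CX3CR1+ macrophages and Ctsh and Ctsz lower. These were 3 and 2 of the 10 mRNAs, where 3.52% and 8.42% of all tested genes were called higher and lower. Lgmn was at 1923, 1559 and 1896 CPM in LYVE1+CX3CR1+ libraries after IC and at 844 and 642 CPM in MHCII+CD11c+ libraries (2.41-fold, log2 1.27 ± 0.23, adjusted p = 0.000514). Ctsd was at 1398, 1143 and 1433 CPM against 481 and 383 CPM (3.07-fold, log2 1.62 ± 0.32, adjusted p = 0.00236). Ctsh was at 115, 116 and 97.5 CPM against 328 and 290 CPM (log2 -1.50 ± 0.23, adjusted p = 0.000107). The fitted differences of Ctsa (log2 0.84 ± 0.18, adjusted p = 0.00236) and Ctsz (-0.62 ± 0.20, 0.0462) were smaller. Ctsl, which had differed 4.82-fold in controls, was at 265, 302 and 201 CPM against 214 and 241 CPM (log2 0.17 ± 0.35, adjusted p = 0.818). Ctsb was at 3900, 3603 and 4066 CPM against 2712 and 2464 CPM and was not called (log2 0.58 ± 0.21, adjusted p = 0.0716), but DESeq2 (0.0185) and voom (0.0166) called it. Without MHCII+CD11c+ IC library 2, Ctsa had an adjusted p of 0.0864 and Ctsd of 0.0616, and Ctsz lost its call without any 1 of the 5 libraries (0.0505 to 0.212), with the size factors of DESeq2 (0.0952), by DESeq2 (0.0810) and with no filter (0.0659).

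Between the MHCII+ subsets after IC, Lgmn alone was called by edgeR, 1 of the 10 mRNAs lower in MHCII+CD11c+ macrophages and 0 higher, where 1.75% and 2.29% of all tested genes were called lower and higher. Lgmn was at 844 and 642 CPM in MHCII+CD11c+ and at 1757, 1542 and 1462 CPM in MHCII+CD11c- libraries (log2 -1.09 ± 0.23, adjusted p = 0.00482), and without MHCII+CD11c+ IC library 2 the adjusted p was 0.223. Ctsb had a log2 difference of -0.72 ± 0.21 with an adjusted p of 0.0503, and Ctsl of -1.004 ± 0.36 with 0.156. DESeq2 and voom each called 4 of the 10 lower, namely Lgmn, Ctsb, Ctsl and Ctsa.

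Between LYVE1+CX3CR1+ and MHCII+CD11c- macrophages after IC, Ctsd was higher and Ctsh and Ctsc were lower in LYVE1+CX3CR1+ macrophages, 1 and 2 of the 10 mRNAs, where 0.746% and 4.79% of all tested genes were called higher and lower. Ctsd was at 1398, 1143 and 1433 CPM against 759, 397 and 484 CPM (log2 1.28 ± 0.28, adjusted p = 0.00922). Ctsh was at 115, 116 and 97.5 CPM against 219, 280 and 351 CPM (log2 -1.37 ± 0.22, adjusted p = 0.000353). Ctsc was at 562, 396 and 510 CPM against 888, 829 and 768 CPM (log2 -0.76 ± 0.20, adjusted p = 0.0258). The Ctsc call was lost without any 1 of LYVE1+CX3CR1+ libraries 2 and 3 and MHCII+CD11c- libraries 1, 2 and 3 (0.0558 to 0.103), and voom called Ctsh alone (Ctsd 0.0748 and Ctsc 0.0849).

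The order of the 6 group means differed between members. Lgmn ran from LYVE1+CX3CR1+ after IC (1792 ± 203 CPM, n = 3) down to control MHCII+CD11c+ macrophages (272 ± 104, n = 3), and only the 3 highest groups overlapped with their neighbours in that order. Ctsl was highest in MHCII+CD11c- macrophages after IC (456 ± 76.6 CPM, n = 3) and lowest in control MHCII+CD11c+ (64.7 ± 43.7), a 7.05-fold ratio of means. Ctsh ran the other way, from control MHCII+CD11c- (382 ± 82.7 CPM, n = 3) to LYVE1+CX3CR1+ after IC (110 ± 10.4, n = 3). Ctss spanned a ratio of 1.60 between its highest and lowest group, and all 5 pairs of neighbours overlapped. Its libraries spread widely in 3 groups, with 1253, 2605 and 1140 CPM in control MHCII+CD11c-, 3002, 1589 and 1264 CPM in the same subset after IC and 1592, 2908 and 1236 CPM in control MHCII+CD11c+ macrophages. In the other 3 groups they lay closer, at 1930 to 2289 CPM in control LYVE1+CX3CR1+ macrophages, 2276 to 2639 CPM in that subset after IC and 2349 to 2974 CPM in MHCII+CD11c+ macrophages after IC. Ctsz had its highest mean in MHCII+CD11c+ macrophages after IC (726 and 687 CPM), and all 5 pairs of neighbours in its order overlapped as well. Ctsk was at 0.425, 19.9 and 6.05 CPM in control MHCII+CD11c+ libraries, where library 1 had 2 counts. Without library 2 of this group, control MHCII+CD11c+ macrophages had the lowest mean also of Ctss (1414 CPM) and Ctsk (3.24 CPM), and the ratio of the highest to the lowest mean was 8.40 for Lgmn, 11.4 for Ctsl and 1.88 for Ctss.

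Macrophage markers moved in the direction of Lgmn, Ctsb, Ctsl, Ctsa and Ctsc in MHCII+CD11c+ macrophages. Ctsh and Ctsz went against them between the LYVE1+CX3CR1+ and MHCII+CD11c+ controls. All 8 markers were called higher in control LYVE1+CX3CR1+ than in control MHCII+CD11c+ macrophages (median log2 2.15), and all 8 were called lower in control MHCII+CD11c+ than in control MHCII+CD11c- macrophages (median -2.14). After IC, 3 of the 8 were called in each of these comparisons (Cd68, Csf1r and Mertk). In the IC response of MHCII+CD11c+ macrophages 0 of the 8 were called by edgeR, 5 had an unadjusted p under 0.05, and the median log2 change was 0.97. Neutrophil markers went the other way, summing to 86.4 to 554 CPM in control MHCII+CD11c+ libraries and 1.65 to 2.35 CPM after IC. After IC, 4 of the 9 in the table were at 0 in both libraries. In this response edgeR called 0 of the 8 neutrophil markers tested. Of these, 7 had an unadjusted p under 0.05, and the median log2 change was -7.96. In control LYVE1+CX3CR1+ libraries neutrophil markers summed to 1.42 to 9.21 CPM, monocyte markers to 19.7 to 38.9 CPM and dendritic cell markers to 11.3 to 14.9 CPM, and in control MHCII+CD11c- libraries to 16.4 to 320 CPM, 228 to 503 CPM and 18.6 to 55.2 CPM. Between the LYVE1+CX3CR1+ and MHCII+CD11c+ controls, 4 of the 8 neutrophil markers tested, 1 of 3 monocyte markers and 2 of 3 dendritic cell markers were called lower in the former, and their part in the differences of the members between subsets was not tested. For MHCII+CD11c+ libraries, summed monocyte markers were at 549 to 1163 CPM in controls and 746 to 991 CPM after IC, and summed dendritic cell markers at 56.5 to 103 CPM and 87.1 to 102 CPM. In the same libraries, summed osteoclast markers were at 136 to 158 CPM in controls and 80.9 to 106 CPM after IC, fibroblast markers at 10.6 to 227 CPM and 90.3 to 93.5 CPM, endothelial markers at 3.03 to 15.05 CPM and 25.3 to 25.6 CPM and lymphocyte markers at 0 to 1.06 CPM. Their part in the results was not tested.

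Divided by the summed macrophage markers of the same library, the members kept different patterns. Per 1000 CPM of markers, Ctsb was at 379, 378 and 375 CPM in control LYVE1+CX3CR1+, 400, 369 and 376 in control MHCII+CD11c-, 469, 421 and 482 in control MHCII+CD11c+ and 515 and 675 in MHCII+CD11c+ libraries after IC. The control MHCII+CD11c+ libraries, which had the lowest Ctsb in CPM, were thus the highest of the controls per marker. Lgmn was at 149, 160 and 152 CPM per 1000 CPM of markers in control LYVE1+CX3CR1+, 124, 125 and 118 in control MHCII+CD11c- and 108, 107 and 126 in control MHCII+CD11c+ libraries. After IC, Lgmn was at 165, 158 and 166, at 148, 174 and 144 and at 160 and 176, with the 3 subsets overlapping. Ctsl per 1000 CPM of markers was at 17.2, 31.3 and 26.7 in MHCII+CD11c+ controls and 40.6 and 66.0 after IC, so Lgmn, Ctsb and Ctsl were each above the controls of this subset after IC also on this scale. The other 4 members that were higher with no overlap in CPM overlapped with the controls on this scale and had lower means, from 126 to 86.5 for Ctsa, from 174 to 128 for Ctsc, from 104 to 98.1 for Ctsd and from 228 to 163 for Ctsz. Between controls, Ctsa was at 61.6, 73.5 and 56.9 per 1000 CPM of markers in LYVE1+CX3CR1+ and 153, 94.6 and 130 in MHCII+CD11c+ libraries, the opposite of its direction in CPM. Ctsc turned as well, with 81.2, 78.4 and 83.3 against 240, 110 and 172. Ctsd overlapped, with 111, 78.8 and 114 against 111, 89.9 and 110, and so did Ctsl, with 31.1, 36.7 and 27.1 against 17.2, 31.3 and 26.7. Ctsh was at 17.8, 13.2 and 17.2 in control LYVE1+CX3CR1+ and 167, 78.4 and 200 in control MHCII+CD11c+ libraries. In control MHCII+CD11c- libraries, Ctsa was at 52.2, 69.6 and 56.6, Ctsc at 133, 93.7 and 143 and Ctsl at 33.2, 36.4 and 37.2. MHCII+CD11c+ control library 2 and IC library 2 had nearly the same marker sum (3639 and 3650 CPM) and differed in Ctsb (1533 and 2464 CPM), Lgmn (390 and 642 CPM) and Ctsl (114 and 241 CPM). Ctss (2908 and 2349 CPM) and Ctsk (19.9 and 12.1 CPM) were lower in the IC library of this pair. Ctsd (327 and 383 CPM), Ctsc (401 and 500 CPM) and Ctsz (548 and 687 CPM) were higher in it. Ctsa (344 and 350 CPM) and Ctsh (285 and 290 CPM) hardly differed. With 1 library on each side, the part of the markers in these values was not tested. The ratios to the markers are given with no test.

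**Figure D5:**
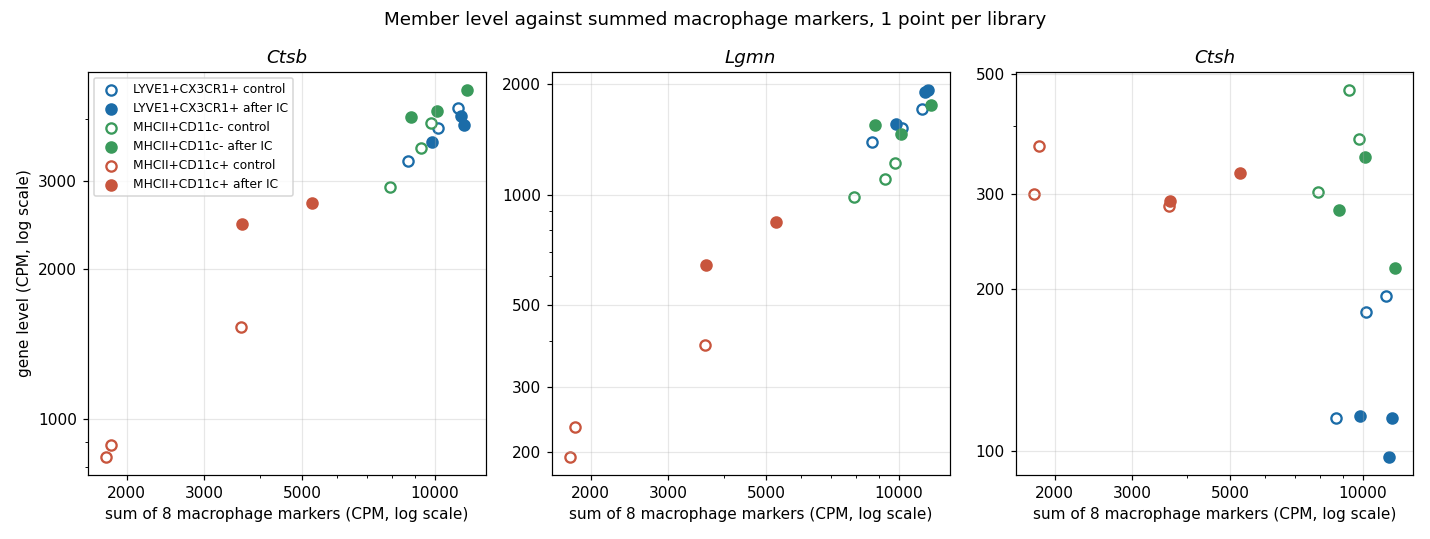
Level of Ctsb, Lgmn and Ctsh (CPM, log axis) against the summed level of 8 macrophage markers (CPM, log axis), 1 point per library, open for controls and filled after IC. Ctsb and Lgmn are lowest in the MHCII+CD11c+ controls with the lowest marker sums (1792 and 1842 CPM), while Ctsh is lowest in LYVE1+CX3CR1+ libraries with high marker sums.

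The genes named next were found by the likeness of their log2 CPM over the 17 libraries, which fall into the 6 groups, so the correlations reflect the differences between subsets and are given as a description. Ctsb was most like Lgmn among all tested genes (Pearson r = 0.981, and 0.941 within groups), followed by C5ar1 (0.978) and C1qb (0.977). Among the genes most like Lgmn were Mpp1 (0.983), Glul (0.981) and Ctsb (0.981). Ctsl was most like Gcnt1 (0.947), Ifi204 (0.945) and Ctsb (0.944), and Ctsa was most like Rhob (0.979), Grn (0.976) and Bin1 (0.976). Ctsd had its highest values with Camk2d (0.966), Dstn (0.958) and Vcan (0.958), and Ctsc with Ncoa4, Cltc and Fam43a (0.937, 0.937 and 0.929). Ctsh was most like Rtn1, Sorl1 and Adgre4 (0.965, 0.952 and 0.937) and its highest r with another member was 0.268 (Ctsc), with -0.815 to Ctsd, -0.629 to Ctsa and -0.506 to Lgmn. Ctsz was most like Glrx, Rps2 and Pkm (0.876, 0.871 and 0.870).

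Factors of the MiT family (Tfeb, Tfe3, Mitf and Tfec) drive lysosomal genes through the letters CACGTG, so these letters were looked for on both strands in the RefSeq promoters of the members (build GRCm38.p6). The table held 10 promoters of 8 members and none for Ctsb and Ctsh. CACGTG was in 4 of the 10, 1 each of Ctsa, Ctsd, Ctsl and Lgmn, and in 7.15% of the 32851 promoters of the table. Over the same windows, the longer TCACGTG, which overlaps it, was in 3 of the 10 and in 3.77% of all. A 10-letter lysosomal form, which also holds CACGTG, was in 0 of the 10 and in 0.326% of all. GAGGAAGT, the letters of PU.1 and other ETS factors, was in the promoters of Ctsc and Ctss and in 3.2% of all. The 4 promoters with CACGTG are shown 5′ to 3′ on the strand of the gene, with 250 bases before and 30 bases from the start, and the capitals mark CACGTG. In Ctsa the matches begin 12 bases upstream and 5 bases downstream of the start, and in Ctsd 245 and 98 bases upstream. They begin 236 bases upstream in Ctsl and 49 bases upstream in Lgmn. Ctsa and Lgmn each had another promoter among the 10, without CACGTG, at chr2:164832622-164832901 and chr12:102439699-102439978. Those windows hold the annotated 5′ ends of the genes, and the windows of Ctsa and Lgmn shown here do not.
Ctsa promoter, chr2:164833523-164833802, plus strand: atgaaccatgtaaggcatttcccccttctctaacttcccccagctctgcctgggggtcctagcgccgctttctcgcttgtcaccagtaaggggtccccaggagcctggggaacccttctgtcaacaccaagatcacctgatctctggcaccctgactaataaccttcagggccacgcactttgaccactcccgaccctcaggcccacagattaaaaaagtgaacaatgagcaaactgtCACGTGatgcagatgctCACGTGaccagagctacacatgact
Ctsd promoter, chr7:142387798-142388077, minus strand: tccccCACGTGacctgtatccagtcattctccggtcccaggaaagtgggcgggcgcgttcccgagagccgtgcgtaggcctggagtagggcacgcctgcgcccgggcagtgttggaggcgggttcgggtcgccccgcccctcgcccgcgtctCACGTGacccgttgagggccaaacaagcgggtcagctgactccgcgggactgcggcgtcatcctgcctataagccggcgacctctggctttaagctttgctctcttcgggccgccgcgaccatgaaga
Ctsl promoter, chr13:64370491-64370770, minus strand: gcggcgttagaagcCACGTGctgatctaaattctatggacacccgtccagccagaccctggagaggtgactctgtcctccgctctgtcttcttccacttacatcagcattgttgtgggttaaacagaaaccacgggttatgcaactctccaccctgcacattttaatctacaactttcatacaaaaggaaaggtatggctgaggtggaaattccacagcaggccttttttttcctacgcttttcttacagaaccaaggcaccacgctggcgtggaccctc
Lgmn promoter, chr12:102439063-102439342, minus strand: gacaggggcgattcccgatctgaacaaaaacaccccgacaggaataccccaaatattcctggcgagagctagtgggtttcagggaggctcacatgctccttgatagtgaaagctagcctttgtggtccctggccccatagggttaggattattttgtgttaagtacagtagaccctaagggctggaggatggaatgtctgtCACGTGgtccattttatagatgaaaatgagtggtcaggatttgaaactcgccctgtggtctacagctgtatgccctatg
The matches describe the letters only, since no binding was measured here.

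Among the factors themselves, Mitf (log2 1.30 ± 0.24, adjusted p = 0.000337), Tfec (2.32 ± 0.65, 0.0154) and Tfe3 (0.62 ± 0.17, 0.0153) were higher in control LYVE1+CX3CR1+ than in control MHCII+CD11c+ macrophages, 3 of 4, and Tfeb was not called. Of all tested genes, 7.83% were called higher there. Mitf was at 140, 129 and 162 CPM against 49.6, 85.3 and 38.6 CPM. Tfe3 was also lower in control MHCII+CD11c+ than in control MHCII+CD11c- macrophages (-0.64 ± 0.17, adjusted p = 0.0204). In the IC responses edgeR called 0 of the 4, with 0, 0 and 1 at an unadjusted p under 0.05 for LYVE1+CX3CR1+ macrophages, the CD11c- subset and the CD11c+ subset, in this order. After IC, edgeR called 0 of the 4 between subsets, and 2, 1 and 0 had an unadjusted p under 0.05 in the comparisons of LYVE1+CX3CR1+ with MHCII+CD11c+, LYVE1+CX3CR1+ with MHCII+CD11c- and the MHCII+ subsets.

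Of the other cathepsins, 4 of the 14 listed were in the table and 3 were tested (Ctse, Ctsf and Ctso), while Ctsw stayed at 0 to 3.03 CPM. Ctsf, a cysteine protease of lysosomes, was at 61.3, 39.5 and 56.7 CPM in control LYVE1+CX3CR1+ and 8.72, 16.9 and 0 CPM in control MHCII+CD11c+ libraries (log2 2.54 ± 0.68, adjusted p = 0.0169). This was the 1 call of the 3 there, where 7.83% of all tested genes were called higher. After IC, Ctsf (3.01 ± 0.81, 0.0247) and Ctso (1.36 ± 0.44, 0.0483) were higher in LYVE1+CX3CR1+ macrophages than in the MHCII+CD11c+ subset, as were 3.52% of all tested genes. None of the 3 was called in an IC response by edgeR, with 0 at an unadjusted p under 0.05 in each subset.

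Of the inhibitors of cathepsins, 8 of the 17 listed were in the table and tested. Cst3, the secreted cystatin C, was at 649 to 1105 CPM in the 17 libraries and was called in no comparison. Serpinb6a, an intracellular serpin, was at 625, 708 and 487 CPM in control LYVE1+CX3CR1+, 292, 432 and 327 CPM in control MHCII+CD11c- and 69.8, 188 and 49.9 CPM in control MHCII+CD11c+ libraries. It was higher in controls of the LYVE1+CX3CR1+ subset than of the MHCII+CD11c+ subset (log2 2.56 ± 0.40, adjusted p = 0.000436) and lower in CD11c+ controls than in CD11c- controls (-1.76 ± 0.39, 0.0106). Ctla2a was at 12.6, 6.76 and 13.3 CPM in control LYVE1+CX3CR1+ libraries and at 0 to 0.884 CPM in the 6 other control libraries, and was called higher against both (adjusted p = 0.0450 and 0.00550). No inhibitor was called in an IC response by edgeR, with 0, 2 and 2 of the 8 at an unadjusted p under 0.05 for LYVE1+CX3CR1+ macrophages, the CD11c- subset and the CD11c+ subset, in this order.

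Of 14 genes of lysosomal sorting, 4 were higher and 1 was lower in control LYVE1+CX3CR1+ than in control MHCII+CD11c+ macrophages. Of all tested genes, 7.83% and 7.4% were called higher and lower there. Higher were the lysosomal membrane proteins Lamp1 (log2 1.37 ± 0.15, adjusted p = 7.81e-07) and Lamp2 (1.05 ± 0.19, 0.000410), Scarb2 (1.15 ± 0.18, 6.34e-05), which carries glucocerebrosidase to lysosomes, and the adaptor Gga2 (2.23 ± 0.43, 0.000690). Psap, which encodes prosaposin, was lower (-0.79 ± 0.19, 0.00475). The mannose 6-phosphate receptors M6pr and Igf2r were called in no comparison, and Igf2r varied within groups, with 57.9, 164 and 40.5 CPM in control MHCII+CD11c+ libraries. Neu1, the partner of Ctsa, was higher in LYVE1+CX3CR1+ macrophages than in the MHCII+CD11c+ subset of control mice (0.94 ± 0.23, 0.00487) and lower in control MHCII+CD11c+ than in MHCII+CD11c- macrophages (-1.05 ± 0.23, 0.00378). EdgeR called 0 of the 14 sorting genes in any IC response, with 0, 2 and 6 at an unadjusted p under 0.05 in the order LYVE1+CX3CR1+, MHCII+CD11c- and MHCII+CD11c+.

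Ifi30, a thiol reductase that opens disulfide bonds of antigens, was lower in control LYVE1+CX3CR1+ than in control MHCII+CD11c+ macrophages, the direction of Ctsh and Ctsz. It was at 130, 179 and 135 CPM in control LYVE1+CX3CR1+ and 263, 301 and 381 CPM in control MHCII+CD11c+ libraries (log2 -1.09 ± 0.19, adjusted p = 0.000171). Cd74, the invariant chain that Ctss and Ctsl cut, fell in LYVE1+CX3CR1+ macrophages after IC from 73.5, 97.0 and 87.6 CPM to 23.1, 10.1 and 31.5 CPM (-2.01 ± 0.29, 0.00258). Summed monocyte markers were at 19.7 to 38.9 CPM in control LYVE1+CX3CR1+ libraries and at 8.71 to 21.6 CPM after IC, and osteoclast markers at 20.5 to 67.4 CPM and 0 to 16.7 CPM, and their part in this fall was not tested. Cd74 was at 7546 to 9342 CPM in control MHCII+CD11c- and 8885 to 15725 CPM in control MHCII+CD11c+ libraries. Cd74 was 1 of 4 called lower and 0 called higher among the 13 partners and substrates in the IC response of LYVE1+CX3CR1+ macrophages, with H2-Aa, H2-Eb1 and Tlr9. Of all tested genes, 0.963% were called in either direction in this response. In the IC responses of the MHCII+ subsets edgeR called 0 of these 13, with 3 and 2 at an unadjusted p under 0.05 without and with CD11c.

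In the annotation (GENCODE M21, GRCm38), Lgmn is at chromosome 12, 102394084 to 102439813, Ctsb at chromosome 14, 63122462 to 63145923, and Ctsl at chromosome 13, 64359337 to 64370890. Ctsd is at chromosome 7, 142375911 to 142388038, and Ctsh at chromosome 9, 90054152 to 90076089. Exons of Ctsb share 774 bases (12.8% of its exon bases) with Fdft1 on the other strand, those of Ctsa share 495 bases (10.5%) with Pltp, and those of Ctsl share 1742 bases (26.8%) with the antisense gene Gm47123. Exons of Ctsd share 808 bases (34.4%) with Gm49369 on the same strand. Whether the counting used the strand, and how it treated shared exons, was not given in the sources used here, so the levels of these 4 genes are uncertain by the reads such exons take.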

How the data were processed

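RNA was measured in 17 libraries of sorted synovial macrophages, made by a low-input stranded method from 5 ng of RNA and read in pairs of 150 bases. Per the study's methods and the submitters' processing notes, the authors trimmed reads with Trim Galore, aligned them to mm10 with HISAT2 and counted them with featureCounts, and the deposited values are raw read counts per gene, which the authors had not normalized. Versions and the strand setting were not given in the sources used here. Each library's column was identical in its own deposited file and in the combined table (17 of 17), and 1 further column, with a total of 0, matched no sample and was left out. Replicates of a group differed with a chi-square per degree of freedom of 6.77 or more, so no library was a repeat of another of its group. Libraries of different groups were not compared in this way.

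Counts were fitted with edgeR 4.0.16 (limma 3.58.1, R 4.3.3) in 1 model of the 6 groups, with TMM scaling, filterByExpr at a minimum count of 10, a robust quasi-likelihood fit and Benjamini-Hochberg adjustment over 15272 genes in each of 12 contrasts, several of which share control libraries. SEs are the log2 fold change over the square root of F, and intervals are 95%. In the IC responses, 2159 (LYVE1+CX3CR1+), 1526 (MHCII+CD11c-) and 795 (MHCII+CD11c+) of all 15272 tested genes had an unadjusted p under 0.05. The biological coefficient of variation was 45.1% with 11 residual degrees of freedom. CPM are counts over TMM-scaled totals, and levels per kb use the longest annotated transcript with a RefSeq match. Alternatives were DESeq2 1.42.0 (test and size factors), voom with quality weights, no filter, 2 of 5 surrogate variables found by sva 3.50.0, only the groups compared, a replicate block, and leaving out each library. Levels of control MHCII+CD11c+ macrophages without library 2 were added after seeing the data. The authors used DESeq2 with sva, and the labels name no batch. Genes outside the family were named where a list gene was called, and as the 3 nearest genes of each member called in any contrast, of which 1 is not reported here. Cst3, M6pr, Igf2r, Tfeb, Ctse and Ctsw fall outside this rule and were chosen after their values were seen. The fit was also run, afterwards, on simulated data made from the means and spread of these counts. Members and lists were chosen with earlier results of these data known. The labels and methods do not tie each of these libraries to a mouse, so p-values measure only the spread between these libraries, which may be technical.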

Additional observations from a re-analysis of the deposited data

How the results depend on the processing

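No fitted change of a member reversed a call under any alternative. In MHCII+CD11c+ macrophages, the 3 members called after IC became 0 with only the compared groups in the fit, and 0 to 3 when 1 library was left out, while all tested genes called went from 33 to between 0 and 104. For LYVE1+CX3CR1+ macrophages after IC, 0 members became 1 (Ctsc, adjusted p = 0.0489) with the replicate block, and 0 were called without any 1 library. For MHCII+CD11c- macrophages after IC, leaving out 1 library gave 0 to 1. Between LYVE1+CX3CR1+ and MHCII+CD11c- macrophages, 2 in controls became 1 with no filter and 1 to 3 without 1 library, and 3 after IC became 1 by voom and 2 to 3 without 1 library. After IC, the 5 between LYVE1+CX3CR1+ and MHCII+CD11c+ macrophages became 2 to 4 without 1 library. The 1 between the MHCII+ subsets after IC became 2 with the size factors of DESeq2, no filter or surrogate variables, 3 with only the compared groups, 4 by DESeq2 and by voom, and 0 to 1 without 1 library. For the difference of responses between LYVE1+CX3CR1+ and MHCII+CD11c+ macrophages, 0 became 2 with no filter, 1 by DESeq2 and 3 by voom, and 0 to 3 without 1 library, as for that between the MHCII+ subsets (0 to 3). The causes were not tested. Precision is limited by 2 or 3 libraries a group, and for Ctsk by as few as 2 counts.

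The replicate numbers were not used as pairs in the main fit, and whether they mark the same mouse was not tested. Same-numbered libraries correlated above 0.1 in all 3 pairs in no comparison, with the highest values between the MHCII+ controls (0.0986, 0.286 and 0.0796). There, each MHCII+CD11c+ library correlated best with the MHCII+CD11c- library of its own number. Each control LYVE1+CX3CR1+ library likewise matched its number among the MHCII+CD11c+ controls, by as little as 0.0172 against 0.0155. The reverse direction was not looked at. These correlations are a hint from the data and not the design. The replicate block gave 3 members for MHCII+CD11c+ macrophages after IC and changed no member's call other than that of Ctsc. In the IC responses this block joined control and treated libraries of the same number. These came from different mice, so there the block cannot stand for a shared mouse.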
